A study of Mus musculus with 4 samples.

Results

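Chemokine ligand transcripts were measured by RNA sequencing in 4 libraries of regulatory T (Treg) cells, a T cell type that needs the factor FOXP3 and holds back immune responses. The 10 ligand genes described here, Cxcl1, Cxcl2, Cxcl3, Cxcl10, Ccl3, Ccl4, Ccl5, Ccl11, Ccl17 and Ccl22, were taken by name out of 23284 gene symbols in the count tables. The other 30 ligand genes of the family served for comparison. The 10 were chosen with earlier results of these data known, so their counts and medians beside those of other genes are descriptive. Cells were sorted from the epididymal fat depot (eWAT) or the spleen of C57BL/6 mice 12 to 13 months old. The mice carried PPARg-2KR, in which lysines of the nuclear receptor PPARG are replaced by arginine, or were wild type (WT). Each combination had 1 library, called 2KR eWAT, WT eWAT, 2KR spleen and WT spleen. Whether a library came from pooled animals, and how Treg cells were gated, is not given in the sources used here.

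Chemokines are small secreted proteins that bind receptors on leukocytes and direct their movement along a gradient. The CXC ligands Cxcl1, Cxcl2 and Cxcl3 act through CXCR2 and draw neutrophils, while Cxcl10 is induced by interferons and draws CXCR3-bearing T and NK cells. Of the CC ligands, Ccl3, Ccl4 and Ccl5 draw T cells and monocytes, and Ccl3 and Ccl5 bind CCR1. Ccl11 (eotaxin) draws eosinophils through CCR3, and Ccl17 and Ccl22 draw CCR4-bearing T cells, Treg cells among them. Macrophages, dendritic cells and stromal cells are common sources of many of these ligands, and activated T cells are a known source of Ccl3, Ccl4 and Ccl5.

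The count tables held 8315569 reads in 2KR eWAT, 11186660 in WT eWAT, 15993889 in 2KR spleen and 13250590 in WT spleen. Levels are given as CPM, the counts scaled to library size and composition, or, between genes, as the deposited FPKM, which also divides by transcript length. A count of 0 allows up to 3 reads, which lies between 0.197 and 0.311 CPM in these libraries. That limit and all intervals below cover counting error only, since PCR copies are not independent molecules. Foxp3 stood at 801 CPM in 2KR eWAT, 1160 in WT eWAT, 1298 in 2KR spleen and 1408 in WT spleen, and the 9 Treg and T cell markers found summed to between 6160 and 8689 CPM. Transcripts that mark other cell types were present too, and those of the next 3 lists were higher in eWAT. Dendritic cell markers (10 genes) summed to 891 CPM in 2KR eWAT and 535 in WT eWAT, against 11.02 in 2KR spleen and 18.7 in WT spleen. Macrophage and monocyte markers (13 genes) summed to 1799 and 1407 CPM in 2KR and WT eWAT, against 95.9 and 139 in 2KR and WT spleen. Fibroblast and mesothelial markers (11 genes) summed to 251 and 581 CPM in 2KR and WT eWAT, against 5.05 and 9.05 in 2KR and WT spleen.

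Per length, Ccl5 was the leading ligand in 3 of the 4 libraries and Cxcl2 led in WT eWAT. Ccl5 stood at 635 FPKM in 2KR eWAT, 408 in WT eWAT, 61.3 in 2KR spleen and 88.1 in WT spleen. It made up 51.5%, 23.7%, 48.8% and 51.6% of the summed FPKM of the 10 ligands in those libraries. Cxcl2 stood at 116 FPKM in 2KR eWAT, 611 in WT eWAT, 3.95 in 2KR spleen and 6.69 in WT spleen. Its share of the summed FPKM was 9.42% in 2KR eWAT, 35.6% in WT eWAT, 3.15% in 2KR spleen and 3.92% in WT spleen. The place of Cxcl2 in the order thus differed between the 2KR and WT eWAT libraries, with rank 3 in 2KR eWAT and rank 1 in WT eWAT, while it held rank 4 in both spleen libraries. The Cxcl10 share was close between genotypes in eWAT, with 17.3% and 17.98% of the summed FPKM in 2KR and WT eWAT, and it was 37.6% and 29.7% in 2KR and WT spleen. The 10 genes together held 72.1% of the FPKM of all family members with a value in 2KR eWAT, 80.8% in WT eWAT, 71.7% in 2KR spleen and 73.4% in WT spleen.

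Below the leaders the order was partly unresolved. In 2KR eWAT, Cxcl2 (116 FPKM) and Ccl4 (105.7 FPKM) had overlapping intervals in the deposited table, as did Cxcl1 (45.6) and Ccl22 (42.5), and as did Ccl3 (16.2), Ccl11 (16.2) and Cxcl3 (15.0), while Ccl17 lay between at 27.5. In WT eWAT the order ran Cxcl2, Ccl5, Cxcl10, Cxcl1 (137 FPKM), Ccl4 (89.7), Cxcl3 (60.4), Ccl22 (45.0), Ccl17 (29.9), Ccl11 (15.4) and Ccl3 (12.6). The intervals of Ccl11 and Ccl3 overlapped there, and the others did not overlap their neighbours. In the spleen libraries only Ccl5, Cxcl10, Ccl4 and Cxcl2 were above 3 FPKM in both, and Cxcl10 followed Ccl5 at 47.1 FPKM in 2KR spleen and 50.7 in WT spleen.

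**Figure D1:**
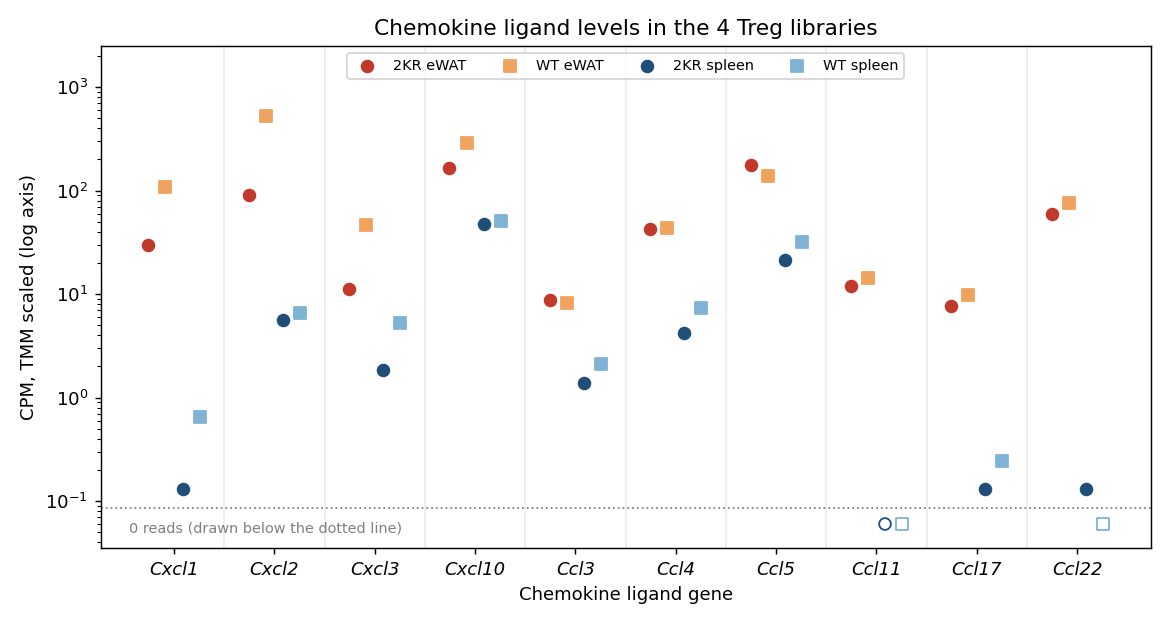
Level of each of the 10 ligand genes in the 4 libraries, in CPM on a log axis, with 1 point per library, the eWAT libraries in warm colours and open symbols below the dotted line for 0 reads. Both eWAT points lie above both spleen points for every gene, and the gap between the 2KR and WT eWAT points is widest for Cxcl2.

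**Figure D2:**
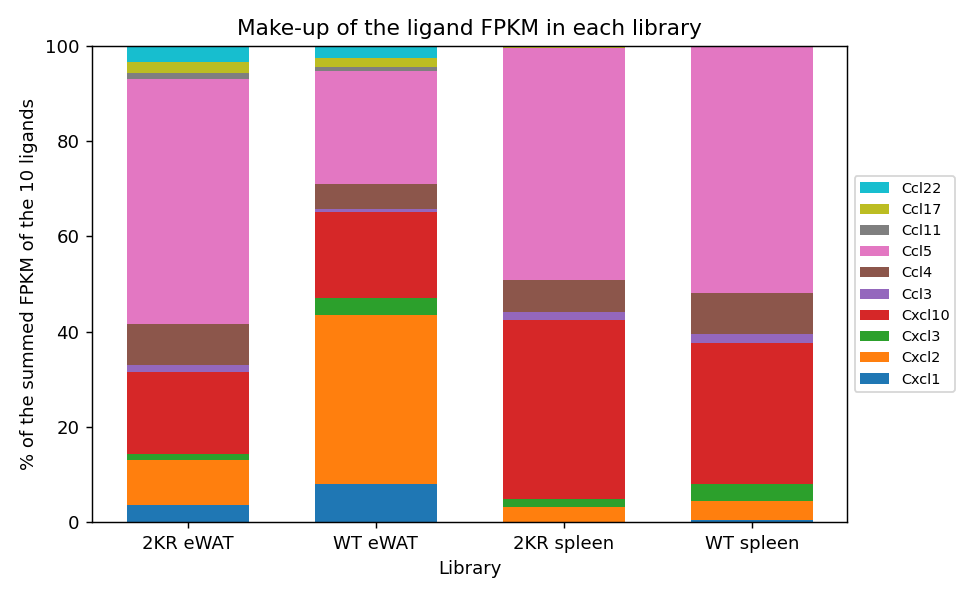
Share of the summed FPKM of the 10 ligands taken by each gene, as 1 stacked bar per library running to 100%. Ccl5 takes the largest share in 2KR eWAT and both spleen libraries, and Cxcl2 takes the largest share (35.6%) in WT eWAT.

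The comparison of tissues asked how Treg libraries from fat differ from those of spleen. All 10 ligands were higher in eWAT than in spleen, with both eWAT libraries above both spleen libraries for each, as for 44.2% of all genes tested. Across the genome, 33.7% of the 16488 genes tested were called higher in eWAT and 56.9% were called in either direction (23.2% lower) by edgeR's quasi-likelihood test at an adjusted p under 0.05. That balance of calls depends on the test and the libraries, with 2722 genes higher and 3031 lower in limma on log2(FPKM + 1), while all 10 ligands stayed higher. The median log2 fold change of the 10 was 4.28, against 0.11 over all genes tested. Ccl11 at its lower bound would still lie above the middle values, so the bound could not move this median. The edgeR p-values of this comparison rest on counting error and on a spread between libraries estimated partly across genes. The genotype difference is a part of that spread. Each SE below is approximate. It is the absolute log2 fold change over the square root of the F statistic of edgeR's test, not a standard error fitted to the coefficient. In bulk samples, fewer cells of a type and less RNA per cell cannot be told apart.

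The CXCR2 ligands lie close together on chromosome 5 (mm9: Cxcl3 at 91215129 to 91217116, Cxcl1 at 91320271 to 91322141 and Cxcl2 at 91332925 to 91334964). Their promoter sequences are shown because all 3 were past 2-fold lower in 2KR eWAT, as given below. Each is the 250 bases before the transcript start from RefSeq (GRCm38.p6), written along the gene's strand, with capitals for matches to the NF-kB (kappaB) consensus.
Cxcl1, chr5:90890995-90891244, plus strand: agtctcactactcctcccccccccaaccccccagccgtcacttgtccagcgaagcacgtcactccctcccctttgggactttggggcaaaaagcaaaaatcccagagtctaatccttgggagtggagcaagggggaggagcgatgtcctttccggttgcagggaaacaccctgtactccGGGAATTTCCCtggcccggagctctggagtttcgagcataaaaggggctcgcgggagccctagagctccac
Cxcl2, chr5:90903649-90903898, plus strand: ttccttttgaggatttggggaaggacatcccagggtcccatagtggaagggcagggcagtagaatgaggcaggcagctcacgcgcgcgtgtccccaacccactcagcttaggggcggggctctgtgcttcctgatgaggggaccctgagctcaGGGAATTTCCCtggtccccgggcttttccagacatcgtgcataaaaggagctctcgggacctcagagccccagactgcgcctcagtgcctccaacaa
Cxcl3, chr5:90785851-90786100, plus strand: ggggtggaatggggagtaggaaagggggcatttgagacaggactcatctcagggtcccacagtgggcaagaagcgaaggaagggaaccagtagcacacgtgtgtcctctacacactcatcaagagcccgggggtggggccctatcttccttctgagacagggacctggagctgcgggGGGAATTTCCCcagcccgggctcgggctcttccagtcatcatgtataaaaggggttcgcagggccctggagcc
All 3 windows hold the same 11 letters, GGGAATTTCCC, which read as a kappaB match on each strand in overlapping positions. The first base of this run lies 71, 97 and 73 bases before the start of Cxcl1, Cxcl2 and Cxcl3. Of 32851 promoters of the same length in the table, 3.90% hold a kappaB match. None of the 3 windows holds an interferon-response core (GAAA and GAAA with any 2 bases between), an AP-1 match (TGANTCA) or a STAT6 match (TTC and GAA with any 4 bases between) on either strand.

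Cxcl1 stood at 30.1 CPM in 2KR eWAT and 107.8 in WT eWAT, against 0.131 in 2KR spleen and 0.646 in WT spleen, and the spleen values are 2 and 8 reads. It rose in eWAT, with a fitted log2 value of 7.53 (SE 0.66, edgeR adjusted p = 1.30e-06), and the pooled reads gave a 197-fold difference with an interval of 107 to 411. Cxcl2 stood at 89.8 CPM in 2KR eWAT and 528 in WT eWAT, against 5.57 in 2KR spleen and 6.62 in WT spleen. It was higher by 5.67 (SE 0.62, edgeR adjusted p = 9.99e-06). The size depends on the WT eWAT library, since the fitted value was 3.79 without it and 6.37 without 2KR eWAT. Cxcl3 stood at 11.1 CPM in 2KR eWAT and 47.0 in WT eWAT, against 1.84 in 2KR spleen and 5.25 in WT spleen. Its log2 fold change of 3.06 (SE 0.58, edgeR adjusted p = 0.000869) became 1.58 without WT eWAT and 3.95 without WT spleen, and that of Cxcl1 became 6.23 and 8.90 without the same libraries. Cxcl2 and Cxcl3 transcripts align over 354 bases at 90.1% identity, with 116 of them past 96%, so 100-base reads with up to 4 mismatches could have been split between them, and their separate levels are uncertain to that extent.

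Cxcl10, at 92775665 to 92777915 of chromosome 5 (mm9), followed Ccl5 in spleen level per length. It had the smallest fitted tissue difference, within the approximate SE of that of Ccl3. It stood at 166 CPM in 2KR eWAT and 290.2 in WT eWAT, against 47.2 in 2KR spleen and 50.6 in WT spleen. The log2 fold change was 2.23 (SE 0.25, edgeR adjusted p = 1.34e-05). Cxcl10 overlaps Art3 on the opposite strand and shares 133 identical transcript bases with it, and the counting is not stated to use strand. Art3 had the opposite order, at 4.88 and 5.63 CPM in 2KR and WT eWAT, against 16.5 and 20.2 CPM in 2KR and WT spleen. The Cxcl10 promoter differs from those of the CXCR2 ligands in its motifs, as the same window shows with kappaB matches again in capitals.
Cxcl10, chr5:92348890-92349139, minus strand: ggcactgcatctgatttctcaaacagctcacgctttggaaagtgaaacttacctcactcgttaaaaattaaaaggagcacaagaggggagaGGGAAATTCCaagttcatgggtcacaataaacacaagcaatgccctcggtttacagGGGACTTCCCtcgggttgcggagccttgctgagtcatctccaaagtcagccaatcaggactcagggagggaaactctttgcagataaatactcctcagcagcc
It holds 2 separate kappaB matches, which begin 159 and 103 bases before the start, an interferon-response core (gaaagtgaaa) 213 bases before it and an AP-1 match (tgagtca) 74 bases before it. Of the same promoters, 2.98% hold the interferon-response core and 6.75% the AP-1 letters.

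Ccl3, Ccl4 and Ccl5 lie on chromosome 11 in mm9, with Ccl5 at 83339281 to 83344020, Ccl3 at 83461345 to 83462880 and Ccl4 at 83476086 to 83478185. They rose in eWAT by 2.30 to 2.92 on the log2 scale. Ccl5 stood at 177 CPM in 2KR eWAT and 139 in WT eWAT, against 21.4 in 2KR spleen and 31.7 in WT spleen (log2 fold change 2.58, SE 0.23, edgeR adjusted p = 1.74e-06). Ccl4 stood at 43.0 CPM in 2KR eWAT and 43.8 in WT eWAT, against 4.20 in 2KR spleen and 7.35 in WT spleen (log2 fold change 2.92, SE 0.29, edgeR adjusted p = 4.22e-06). Ccl3 stood at 8.82 CPM in 2KR eWAT and 8.22 in WT eWAT, against 1.38 in 2KR spleen and 2.1 in WT spleen. Its log2 fold change was 2.30 (SE 0.53, edgeR adjusted p = 0.00284), the highest adjusted p among the 10. The closest pairs of profiles among the 10 were Ccl3 with Ccl5 and Ccl4 with Ccl5, at root mean square log2 distances over the 4 libraries of 0.20 and 0.23.

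Ccl11, Ccl17 and Ccl22 were close to absent from the spleen counts. Ccl11 (mm9, chromosome 11, 81871334 to 81876457) stood at 11.9 CPM in 2KR eWAT and 14.4 in WT eWAT, which are 115 and 156 reads, against 0 reads in both spleen libraries. With the floor of 3 reads over the spleen group, it was at least 122-fold higher in eWAT (edgeR adjusted p = 3.90e-06). That bound leaves out the counting error of the eWAT reads, and the 95% counting interval of the pooled ratio begins at 98.5-fold. Ccl22 (chromosome 8, 97269584 to 97275288) stood at 59.5 CPM in 2KR eWAT and 76.4 in WT eWAT, against 2 reads in 2KR spleen and 0 in WT spleen. The pooled ratio was 946-fold with an interval of 261 to 7816 (edgeR adjusted p = 5.18e-09). Its fitted log2 value of 9.69 (SE 0.45) became 12.52 without 2KR spleen and 8.87 without WT spleen. That SE is narrow beside the counting interval of the pooled ratio, which rests on 2 spleen reads. Ccl17, its neighbour on chromosome 8 (97334353 to 97335936), stood at 7.68 CPM in 2KR eWAT and 9.69 in WT eWAT, against 2 and 3 reads in 2KR and WT spleen. It was higher by a log2 fold change of 5.50 (SE 0.71, edgeR adjusted p = 4.56e-05). None of these 3 genes shared a stretch of 96 bases at 96% identity with another transcript. The promoter table held Ccl3, Ccl17 and Ccl22 besides the 4 CXC genes, 7 of the 10, and no kappaB match was found in those 3 windows.

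**Figure D3:**
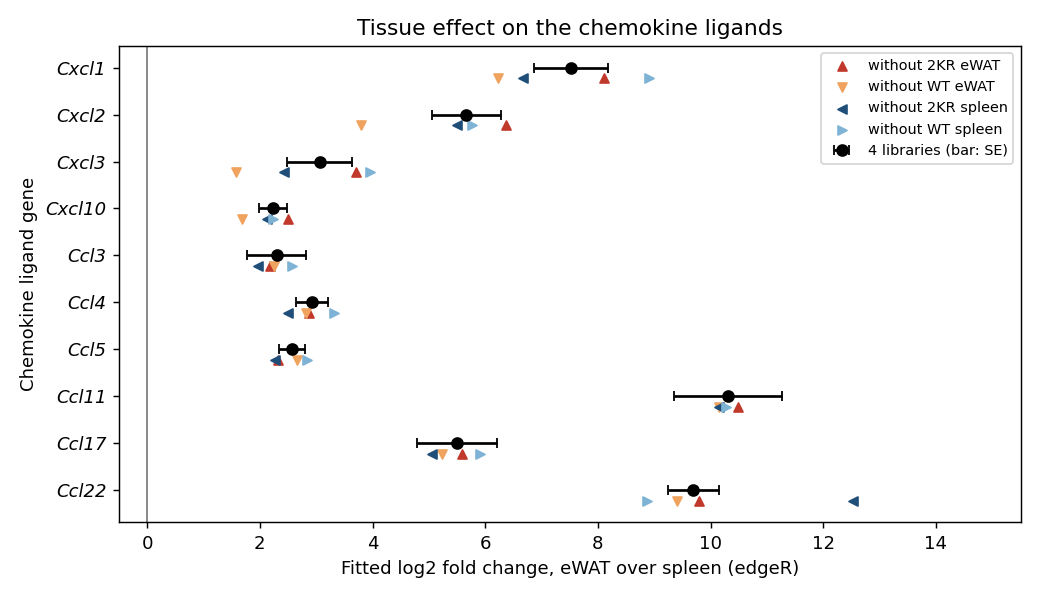
Fitted log2 fold change, eWAT over spleen, for each ligand from edgeR, with smaller symbols for the fit without each library. Bars show the approximate SE, worked back from the F statistic of the test. All points lie above 0. Leaving out the WT eWAT library gives the lowest value of Cxcl1 (6.23), Cxcl2 (3.79) and Cxcl3 (1.58), and the widest shift is that of Ccl22 without 2KR spleen (12.52). The Ccl11 and Ccl22 values depend on the prior count because spleen holds 0 to 2 reads.

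Within each genotype the tissue ratio kept its direction for all 10 genes. Cxcl2 had the most unequal ratios, with a log2 value of 3.97 between the 2KR libraries and 6.28 between the WT libraries. Cxcl10 followed the same side, at 1.81 and 2.52 in 2KR and WT. The ligands Ccl3, Ccl4 and Ccl5 were on the other side, with Ccl5 at 3.03 in 2KR and 2.13 in WT, Ccl4 at 3.31 and 2.55, and Ccl3 at 2.54 and 1.89. These differences between genotypes rest on 1 library each and were not tested.

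The comparison of genotypes asked what the PPARg-2KR change does to Treg cells in each tissue. In eWAT the 3 CXCR2 ligands were lower in the 2KR library by 3.57-fold to 5.87-fold, Cxcl10 was lower by 1.74-fold, and none of the CC ligands was past 2-fold. With 1 library per group there is no replicate check on these ratios. Of the 10 ligands, 3 were past 2-fold lower, against 2.36% of the 12307 genes that reached 5 CPM in some library. Past 2-fold higher were 0 of 10, against 5.31% of those genes, and 7.67% were past 2-fold in either direction. Below 0 lay 8 of the 10, against 56.2%. The median log2 ratio of the 10 was -0.35, against -0.08 over all those genes. Among the 7683 genes with a mean of 20 CPM or more, the median was -0.19 and 1.99% were past 2-fold lower.

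Cxcl2 had the largest difference, with 865 reads in 2KR eWAT and 5715 in WT eWAT, a log2 ratio of -2.55 (95% interval -2.66 to -2.45). Cxcl3 had 107 reads in 2KR eWAT and 509 in WT eWAT, a log2 ratio of -2.06 (-2.40 to -1.78). Cxcl1 had 290 reads in 2KR eWAT and 1168 in WT eWAT, a log2 ratio of -1.84 (-2.03 to -1.65). All 3 stayed past 2-fold with the deposited FPKM and with scaling by total counts, where Cxcl2 was at -2.40 and -2.29. Cxcl10 had 1604 reads in 2KR eWAT and 3144 in WT eWAT, a log2 ratio of -0.80 (-0.89 to -0.71).

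The CC ligands lay near 0 and their signs were less settled. Ccl5 was the only member with an interval above 0, at 0.34 (0.24 to 0.45), with 1702 reads in 2KR eWAT and 1506 in WT eWAT. Ccl22, at -0.36 (-0.52 to -0.21), was the only CC ligand with an interval below 0, and it came to -0.10 with scaling by total counts. The intervals of Ccl3 (0.10, -0.34 to 0.55), Ccl4 (-0.03, -0.22 to 0.17), Ccl11 (-0.27, -0.63 to 0.09) and Ccl17 (-0.33, -0.79 to 0.11) held 0. Scaling by total counts raised the median of all genes by 0.26 in this comparison, and Ccl4 became positive at 0.23. Set against that median, the CXCR2 ligands stayed lower and Ccl5 stayed higher.

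**Figure D4:**
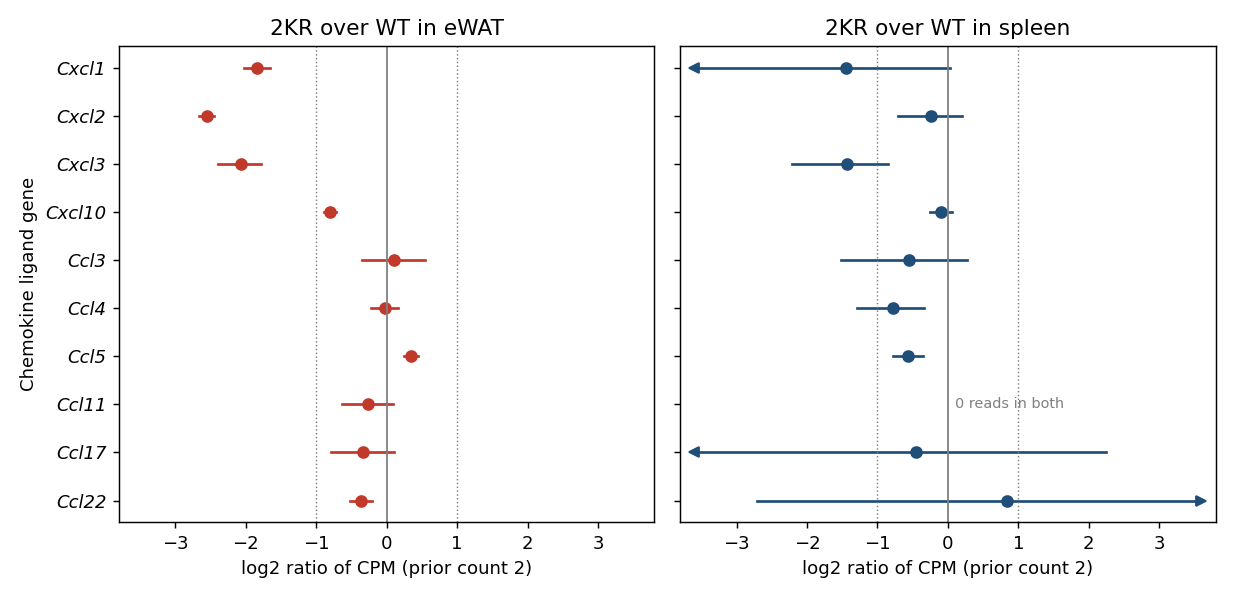
Log2 ratio of 2KR over WT for each ligand within eWAT and within spleen, with bars for the 95% counting interval of the reads. In eWAT the Cxcl1, Cxcl2 and Cxcl3 points lie below -1 and the CC ligands lie between -0.36 and 0.34. Arrows mark intervals that run past the axis, in spleen for Cxcl1 (2 and 8 reads in 2KR and WT), Ccl17 (2 and 3 reads) and Ccl22 (2 and 0 reads), and Ccl11 had 0 reads in both spleen libraries.

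In spleen most ligands were too low for a firm ratio. Past 2-fold lower in 2KR were 2 of the 10, Cxcl1 and Cxcl3, against 5.71% of 12307 genes, and 0 were past 2-fold higher, against 1.03% (6.74% in either direction). Below 0 lay 8 of the 10, against 58.9%. The 12307 genes reached 5 CPM in some library, which could be an eWAT library. Ligand counts and shares alike thus include genes with few spleen reads, such as Ccl17 with 2 reads in 2KR spleen and 3 in WT spleen. Cxcl3 had 28 reads in 2KR spleen and 65 in WT spleen, a log2 ratio of -1.44 (-2.21 to -0.86). Cxcl1 had 2 reads in 2KR spleen and 8 in WT spleen, a log2 ratio of -1.45 with an interval that reached 0.02. Ccl4 (-0.78, -1.29 to -0.33) and Ccl5 (-0.56, -0.78 to -0.35) were lower in 2KR spleen with intervals below 0. The ratios of Cxcl2 (-0.24, -0.70 to 0.21), Cxcl10 (-0.10, -0.26 to 0.06) and Ccl3 (-0.55, -1.51 to 0.28) had intervals that held 0. For Ccl11, Ccl17 and Ccl22 between 0 and 3 reads were counted in each spleen library, so a difference was not detectable at this depth.

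A genotype effect common to both tissues could be tested in a model that also held tissue, which left 1 residual degree of freedom. Cxcl1 and Cxcl3 fell in 2KR, 2 of the 10 ligands, against 0.0667% of the 16488 genes tested, which is 11 genes, all of them lower in 2KR. The fitted change of Cxcl1 was -1.86 in log2 units (SE 0.26, edgeR adjusted p = 0.000992). That of Cxcl3 was -1.84 (SE 0.31, edgeR adjusted p = 0.0113). Both were lower in 2KR in 2 of 2 tissues, but the spleen ratio of Cxcl1 rests on 2 reads in 2KR and 8 in WT. Its counting interval ran from -5.57 to 0.02, so spleen gives little check on the eWAT difference of Cxcl1. Cxcl2 did not pass, at -1.61 (SE 0.35, edgeR adjusted p = 0.130, unadjusted p = 0.000126). The common genotype log2 fold changes of the other 7 lay between -0.46 and -0.09, with an adjusted p of 0.9999 in edgeR. At an unadjusted p under 0.05 there were 777 genes, 212 of them higher in 2KR. Scaling by total counts gave 21 called genes, 10 of them higher, among which Cxcl1 and Cxcl2 were called and Cxcl3 was not (adjusted p = 0.0542, edgeR). DESeq2's Wald test called none of the 10 (adjusted p = 0.143 for Cxcl1 and 0.371 for Cxcl3), where it called 2 genes in all, both lower. Over the 5 alternatives the adjusted p ran between 2.12e-07 and 0.9999 for Cxcl1 and between 9.54e-06 and 0.9999 for Cxcl3.

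Among the receptors that bind these ligands, 6 of 8 tested were higher in eWAT, against 33.7% of all genes tested. Lower in eWAT were 0, against 23.2%. Ccr1 and Ccr3 were also among the 11 genes that fell in 2KR. Ccr1, which binds Ccl3 and Ccl5, stood at 34.3 CPM in 2KR eWAT and 241 in WT eWAT, against 0.656 in 2KR spleen and 1.13 in WT spleen. It fell in 2KR by 2.49 (edgeR adjusted p = 0.000227), and its eWAT ratio was -2.81. Ccr3, which binds Ccl11, stood at 84.8 CPM in 2KR eWAT and 186 in WT eWAT, against 3.28 in 2KR spleen and 7.83 in WT spleen, and fell in 2KR by 1.17 (edgeR adjusted p = 0.0113). Ccr4, the receptor of Ccl17 and Ccl22, stood at 44.4 and 62.8 CPM in 2KR and WT eWAT, against 32.0 and 28.6 in 2KR and WT spleen, a log2 fold change of 0.83 (edgeR adjusted p = 0.00621). Cxcr3, the Cxcl10 receptor, stood at 301 and 199 CPM in 2KR and WT eWAT, against 199 and 299 in 2KR and WT spleen (log2 fold change 0.01, edgeR adjusted p = 0.982). Cxcr2, the receptor of Cxcl1, Cxcl2 and Cxcl3, had 12 reads in each eWAT library, against 8 in 2KR spleen and 0 in WT spleen (edgeR adjusted p = 0.0847), and Cxcr1 had 3 reads in WT eWAT and 0 in the other libraries. The scavenging receptors Ackr1 (Darc) and Ackr2 (Ccbp2) were also higher in eWAT, by 4.37 and 5.65, from at most 44 reads.

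Of the other 30 ligands, 20 were tested. Of these, 14 were higher in eWAT, against 33.7% of all genes tested, 1 was lower and 5 did not pass. Their median log2 fold change was 2.24, against 4.28 for the 10 ligands above. Setting Ccl7 to its bound could not move this median, since the bound lies above the middle values. Ccl9 (173 and 166 CPM in 2KR and WT eWAT, against 0.525 and 1.29 in 2KR and WT spleen) and Ccl6 (169 and 194 CPM in 2KR and WT eWAT, against 2.89 and 1.21 in 2KR and WT spleen) were the most abundant in reads. Ccl2, which draws monocytes through CCR2, stood at 17.3 and 18.4 CPM in 2KR and WT eWAT, against 0 and 0.404 CPM in 2KR and WT spleen. Ppbp, a platelet ligand of CXCR2, was the gene that fell in eWAT (log2 fold change -2.47, edgeR adjusted p = 0.00603). It is named after its value was seen. In eWAT, 13 of the 30 reached 5 CPM in some library, with a median 2KR over WT log2 ratio of 0.06. None of these 13 was past 2-fold lower in 2KR, and Ccl7 was past 2-fold higher at 1.12 (19.9 CPM in 2KR eWAT and 9.05 in WT eWAT). The genotype fit called 0 of the 20 tested.

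Genes of the NF-kB and interferon responses, pathways known to induce several of these ligands, had mixed directions. Over all genes tested, 33.7% were higher in eWAT and 23.2% were lower. Of 14 NF-kB response genes, 8 were higher in eWAT, 1 was lower and 5 did not pass. Their median 2KR over WT log2 ratio in eWAT was -0.36, and 11 of 14 lay below 0, against 56.2% of the genes that reached 5 CPM in some library. Genes with a mean of 20 CPM or more, a level that most of the 14 reached, had a median of -0.19. Nfkbiz, which encodes a nuclear cofactor of NF-kB, stood at 1016 CPM in 2KR eWAT and 2296 in WT eWAT, a log2 ratio of -1.18. Nfkbia, which encodes an NF-kB inhibitor, stood at 2011 and 4167 CPM in 2KR and WT eWAT (-1.05), and Tnfaip3, which encodes a ubiquitin-editing inhibitor of the pathway, at 3570 and 7137 CPM in 2KR and WT eWAT (-0.999). These 3 had the lowest ratios of the 14. Il1b had the opposite order, at 503 CPM in 2KR eWAT and 266 in WT eWAT (0.92). So did Rel, at 174 CPM in 2KR eWAT and 117 in WT eWAT (0.58). Nfkbie was at -0.33 and Il6 at -0.007 in the same comparison. None of the 14 passed the common genotype test in edgeR. Of 12 interferon response genes, 2 were higher in eWAT, 7 were lower and 3 did not pass, whereas Cxcl10 was higher. Among them, Usp18, which encodes a negative regulator of interferon signalling, fell in eWAT (log2 fold change -2.51, edgeR adjusted p = 1.03e-06). Their median 2KR over WT ratio in eWAT was 0.12.

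Markers of dendritic, stromal, endothelial and macrophage or monocyte cells were mostly higher in eWAT, and several lists differed between the eWAT libraries. Called higher in eWAT were all 10 dendritic cell markers, all 11 fibroblast and mesothelial markers, 12 of the 13 for macrophages and monocytes and 9 of the 10 for endothelium. In the order dendritic, fibroblast and mesothelial, macrophage and monocyte, and endothelial, their median log2 fold changes were 5.03, 4.76, 2.07 and 4.38, against 4.28 for the 10 ligands. For comparison, 1 of 9 Treg and T cell markers was higher, 4 were lower and 4 did not pass. Lum was at 0 reads in both spleen libraries, and Clec10a, Fcgr1 and Cldn5 were at 0 in 2KR spleen. Between the eWAT libraries, all 11 fibroblast and mesothelial markers lay below 0 for 2KR over WT, 6 of them past 2-fold, with a median of -1.09. Dendritic cell markers had a median of 0.83, with 8 of 10 above 0, and macrophage and monocyte markers a median of 0.49. Treg and T cell markers had a median of -0.38, with 8 of 9 below 0. Other lists were less uniform across tissues. For all lists here, the shares over all genes tested were 33.7% higher in eWAT and 23.2% lower. Of 7 B cell markers, 3 were higher in eWAT, 2 were lower and 2 did not pass, and their sums were 165 and 92.4 CPM in 2KR and WT eWAT, against 105 and 118 in 2KR and WT spleen. Of 10 CD8 T and NK cell markers, 3 were higher, 1 was lower and 6 did not pass, with sums of 275 and 191 CPM in 2KR and WT eWAT, against 159 and 205 in 2KR and WT spleen. Of 5 neutrophil markers tested, 2 were higher and 3 did not pass, and the list was low in every library, with sums of 9.65 and 8.49 CPM in 2KR and WT eWAT, against 1.97 and 5.01 in 2KR and WT spleen. All 3 mast cell markers and both eosinophil markers that were tested were higher in eWAT. Mast cell markers summed to 83.1 and 14.4 CPM in 2KR and WT eWAT, against 7.28 and 9.45 in 2KR and WT spleen, and eosinophil markers to 18.2 and 13.1 CPM in 2KR and WT eWAT, against 1.25 and 1.21 in 2KR and WT spleen. Pecam1 led the endothelial list and was lower in eWAT, at 112 and 63.4 CPM in 2KR and WT eWAT, against 191 and 172 in 2KR and WT spleen. The other 9 endothelial markers summed to 174 and 107 CPM in 2KR and WT eWAT, against 4.13 and 11.1 in 2KR and WT spleen. Likewise Lipe led the adipocyte list and was lower in eWAT, at 22.2 and 15.2 CPM in 2KR and WT eWAT, against 28.5 and 33.8 in 2KR and WT spleen, while the other 6 adipocyte markers summed to 20.03 and 13.1 CPM in 2KR and WT eWAT, against 1.44 and 2.83 in 2KR and WT spleen. The part of these cells in the ligand values was not tested.

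**Figure D5:**
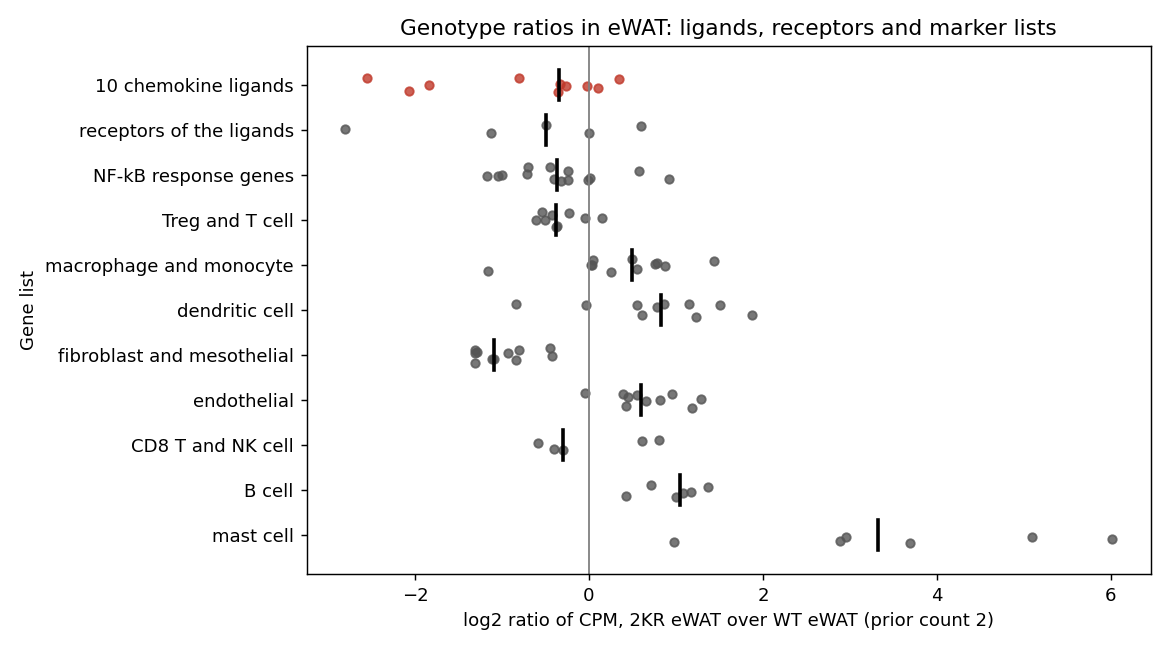
Log2 ratio of CPM, 2KR eWAT over WT eWAT, with 1 point for each gene that reached 5 CPM in some library, lists down the page and a bar at each list's median. The 10 ligands (red) have a median of -0.35 and spread to -2.55, the fibroblast and mesothelial genes all lie below 0 with a median of -1.09, and the dendritic cell median is 0.83.

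Genes with the most similar profiles were found by the root mean square distance of centred log2 CPM over the 4 libraries, among 9881 genes with a mean of at least 5 CPM. For Cxcl1 these were Calca (0.27), C1s (0.44) and Smoc2 (0.45), and for Cxcl2 they were Slco2b1 (0.32), Lmna (0.34) and Il1rl1 (0.36). Slco2b1 is among the 11 genes that fell in 2KR. For Cxcl3 they were Plod2 (0.09), Specc1 (0.38) and Gfpt2 (0.40), and for Cxcl10 they were Samsn1 (0.02), Trip10 (0.09) and Ahnak (0.09). Ccl3 lay closest to Hpse (0.05), Mxra8 (0.06) and Apobr (0.09), and Ccl4 to Rab3il1 (0.06), Xcr1 (0.07) and Klrk1 (0.11). Ccl5 lay closest to Deptor (0.05) and Pdzd2 (0.05), and Ccl11 to Bgn (0.14), Fosl2 (0.18) and Krt80 (0.21). Ccl17 lay closest to Gda (0.09), Kitl (0.09) and Gp49a (0.11), and Ccl22 to Sparc (0.20), Dcn (0.34) and Aqp1 (0.39). With only 4 libraries many genes have similar profiles, and the distances are given as a description.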

How the data were processed

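RNA from sorted Treg cells was sequenced as 1 library for each combination of tissue and genotype. The authors deposited whole-number read counts per gene symbol and FPKM per gene made with Cufflinks 2.0.2. Per the deposited readme, Tophat 2.1.0 placed the 100-base reads of poly-A libraries on mm9 after bcl2fastq 1.8.4, with 4 mismatches and 10 multiple hits allowed. The submitters' processing notes also name mm8. No source used here gives the counting tool or its use of strand.

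Counts were scaled by TMM factors of 1.16 (2KR eWAT), 0.968 (WT eWAT), 0.953 (2KR spleen) and 0.934 (WT spleen) and tested with edgeR 4.0.16 (R 4.3.3) over 16488 genes past its expression filter, with Benjamini-Hochberg adjustment. The tissue test set 2 eWAT against 2 spleen libraries. Ratios within a tissue used log2 CPM with a prior count of 2, with 95% exact conditional binomial intervals. DESeq2 1.42.0 and limma 3.58.1 served for alternatives, blastn 2.17.0 for shared transcript sequence, and Python 3.11.15 with pandas 2.3.3, scipy 1.17.1, numpy 2.4.6 and matplotlib 3.10.9 for other steps. The steps were tested on simulated counts with a coefficient of variation of 0.2, against 0.234 in the genotype fit of the real counts. Of 100 genes changed by 2 log2 units, 99 were recovered in the tissue fit and 99 in the genotype fit. Of 100 changed by 1 log2 unit, 36 and 16 were recovered, so the genotype test missed most changes of that size. False calls were 8 and 0. Promoters came from the RefSeq table (GRCm38.p6), whose coordinates are kept apart from those of mm9.

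The ligands and the 16 gene lists (170 of 173 genes found) were chosen with earlier results of these data known. Named were all 10 ligands, the first 3 genes of each list with up to 4 others of the largest tissue change, and the 3 genes nearest in profile to each ligand; further list genes were named after their values were seen (Ccr4, Ppbp), and some genes that the rule selects are not reported here.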

Additional observations from a re-analysis of the deposited data

Results flagged for a closer look

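Ccl5 moved in opposite directions with genotype in the 2 tissues. The 2KR over WT log2 ratio of Ccl5 came to 0.34 in eWAT (177 CPM in 2KR eWAT and 139 in WT eWAT) and -0.56 in spleen (21.4 CPM in 2KR spleen and 31.7 in WT spleen), with counting intervals of 0.24 to 0.45 and -0.78 to -0.35. The difference between tissues, 0.90, was not tested, because each group has 1 library. These signs were not particular to Ccl5. List medians in eWAT and spleen were 0.83 and -0.85 for dendritic cell, 0.49 and -0.76 for macrophage and monocyte, and 0.60 and -0.98 for endothelial markers. B cell, mast cell, adipocyte and eosinophil medians had the same signs. Fibroblast and mesothelial, Treg and T cell, and CD8 T and NK cell medians were below 0 in both tissues. Many of these genes had few spleen reads.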

How the results depend on the processing

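All 10 ligands stayed called higher in eWAT under the 11 alternatives, which included scaling by DESeq2 size factors or total counts, DESeq2's Wald test, no count filter, genotype as a further term, limma on log2 FPKM and leaving out each library. Without 1 library the called count was 10 in each fit, the highest adjusted p was 0.0168 in edgeR (Ccl3), and the lone library of a tissue was assumed to vary like the others. The count of other ligands called (15) was 13 to 15. The common genotype count of 2 ligands became 0 under DESeq2's Wald test (2 at an unadjusted p under 0.05) and 0 with no tissue term (0 unadjusted), and 3 with DESeq2 size factors or with no count filter, where Cxcl2 joined; the cause was not tested. Over all genes that test called 11, against 29 with DESeq2 size factors, 21 with total counts, 51 with no filter, 2 with DESeq2 and 0 with no tissue term. The tissue test called 9387 genes, against 6074 without 2KR spleen and 5753 and 5718 with limma on log2(FPKM + 1) and log2(FPKM + 0.1). Its split of 5555 higher and 3832 lower became 2722 and 3031 or 2703 and 3015 with limma on those scales, 3403 and 4189 without 2KR eWAT, 4940 and 5278 without WT eWAT, and 5491 and 1909 without WT spleen. The count of 3 ligands past 2-fold lower in 2KR eWAT was 3 in all 5 alternatives. The spleen count of 2 was 1 with a prior count of 5 and 3 with a prior count of 0.5, since Cxcl1 rests on 2 and 8 reads. Scaling by total counts raised the median tissue effect of all genes by 0.17. No paired analysis was possible because the labels give no replicate numbers and each group has 1 library. Depth limits the spleen ratios of Cxcl1, Ccl11, Ccl17 and Ccl22.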
